A study of Xenopus laevis with 9 samples.

Results

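The 49 RNAs described here encode solute carriers (symbols starting with slc and a digit, 30 genes) and transmembrane proteins of the tmem series (19 genes). They were taken by symbol from the gene annotation of the study, of which 1999 of 19752 entries (10.12%) were in hand, and joined by gene identifier to the 44478 genes of the count table. The rule uses symbols and no measured value, but it was set with earlier results of these data known. Because only part of the annotation was in hand, chromosome 3L of the *Xenopus laevis* v10.1 assembly carries 33 members, 2S 13 and 1L 3. The suffixes .L and .S name the subgenome of this allotetraploid frog. The RNA came from cytoplasmic extract of *X. laevis* eggs arrested in metaphase. In the input, at time point 0, the extract was not filtered. The early filtrate T1 (time point 1) had been driven through membranes with nanometre-scale pores at low pressure, and the late filtrate T2 (time point 2) at high pressure, so time and pressure cannot be told apart. Each condition had 3 replicates, 9 libraries in all, and the labels name no mutation or drug that sets the groups apart. By the study's methods, extracts for every group contained cytochalasin D and nocodazole, which disrupt actin filaments and microtubules, with protease inhibitors and sucrose, and had passed a coarse mesh first. The comparisons ask which RNAs pass the membrane early, and which pass only late.

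Solute carriers are membrane proteins that move ions, metals, sugars, amino acids and cofactors across the plasma membrane or the membranes of organelles. Their mRNAs, like those of most proteins with several membrane-spanning segments, are usually translated on ribosomes bound to the endoplasmic reticulum, while many mitochondrial carriers are made in the cytosol and imported afterwards. An egg holds a store of maternal mRNAs that serves the embryo before its own genes are switched on. The name tmem is given by sequence alone and joins proteins of unlike function. Not every member is a multi-pass transporter: tmem131 and tmem123 are single-pass proteins, and slc27a2 is an acyl-CoA synthetase.

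Between 65503682 and 90000652 reads were counted on genes per input library, 23509338 to 37265313 at T1 and 60330615 to 93451602 at T2. Levels are given as reads scaled to the library total (CPM) after TMM normalization, unless stated otherwise. A CPM value is a share of its library, so that less of an RNA and more of all others cannot be told apart. The RNAs of 9 egg markers had more than 3 reads each in all 9 libraries and summed to 1048 to 1203 CPM by library size in the input, 948 to 1168 at T1 and 989 to 1205 at T2. Among these 9, npm2.L and zp4.L rose at T1 (log2 fold changes 2.13 and 1.92, adjusted p = 0.0101 and 0.0145) and gdf9.L fell (-1.51, adjusted p = 0.0248), in the test described below. The sums of 5 blood and immune markers were 13.2 to 26.2 CPM in the input, 0.213 to 27.1 at T1 and 33.3 to 46.2 at T2. Those of 4 neuron markers were 38.4 to 43.5, 0.128 to 37.2 and 44.7 to 48.3 CPM, and those of 3 vessel markers 1.39 to 10.9, 0.0425 to 23.6 and 1.71 to 10.6 CPM. Most of the blood and neuron sums was irf5.L, with means of 15.6, 14.1 and 27.7 CPM, and grm8.L, with 35.1, 23.1 and 40.2 CPM, while laptm5.S, an immune marker, was at 0 CPM in the mean of T1 and fell (adjusted p = 0.0464). The part of such RNAs in the results below was not tested.

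All 49 members passed the filter on low counts. In the input nearly every member was detected: 48, 49 and 48 members had more than 3 reads in replicates 1, 2 and 3. At T1 this held for 38, 35 and 32 members and at T2 for 44, 47 and 43. Of the 1852 other named mRNAs in hand, 1824, 1809 and 1817 had more than 3 reads in the input. For them the counts were 1501, 1422 and 1229 at T1 and 1730, 1716 and 1626 at T2, so a loss at T1 was not particular to the members. At the lower depth of T1, 3 reads stand for 0.0827 to 0.161 CPM, against 0.0319 to 0.0441 CPM in the input. The part of depth in these counts was not tested. Levels of different genes are not compared, since transcript lengths were not used here. The members together took 1840 to 1981 CPM by library size in the input, 3053 to 3462 at T1 and 2279 to 2472 at T2. Much of the T1 sum came from a single mitochondrial carrier, slc25a3.L. By library size the mitochondrial carriers together took 317 to 434 CPM in the input and 1046 to 1679 at T1. In each other substrate group described below and in the tmem RNAs, the summed T1 libraries overlapped with the input. All solute carriers together, slc25a3.L included, took 1077 to 1228 CPM in the input and 2101 to 2485 at T1. For the tmem RNAs the sums were 753 to 811 CPM in the input and 700 to 1033 at T1.

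In the T1 filtrates 3 members were more abundant than in the input and 4 were less abundant at an adjusted p under 0.05 (edgeR's quasi-likelihood test, Benjamini-Hochberg adjustment over 20148 genes). This is 14.3% of the members, against 11.5% of all genes tested. By direction the shares were 6.12% higher and 8.16% lower, against 6.44% and 5.08% of all genes. The RNAs of slc25a3.L, tmem39b.S and slc10a7.L rose, by 3.66-fold to 6.96-fold in mean CPM, and those of tmem131.S, slc26a5.L, slc35b4.L and slc25a37.L fell to a few reads per library. The number of members called depended on single libraries. It was 3 without input replicate 1, 2 or 3 (6.12%, against 2%, 1.99% and 2.81% of all genes), 12 without T1 replicate 1 or 3 (24.5%, against 18.8% and 13.2%), and 4 without T2 replicate 1 (8.16%, against 6.47%). The 3 calls left without an input replicate were slc25a3.L, tmem39b.S and tmem131.S each time. In a fit with the replicate number as a block, 4 members were called (8.16%, against 7.44% of all genes). The calls of slc10a7.L, slc35b4.L and slc25a37.L were lost there.

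**Figure D1:**
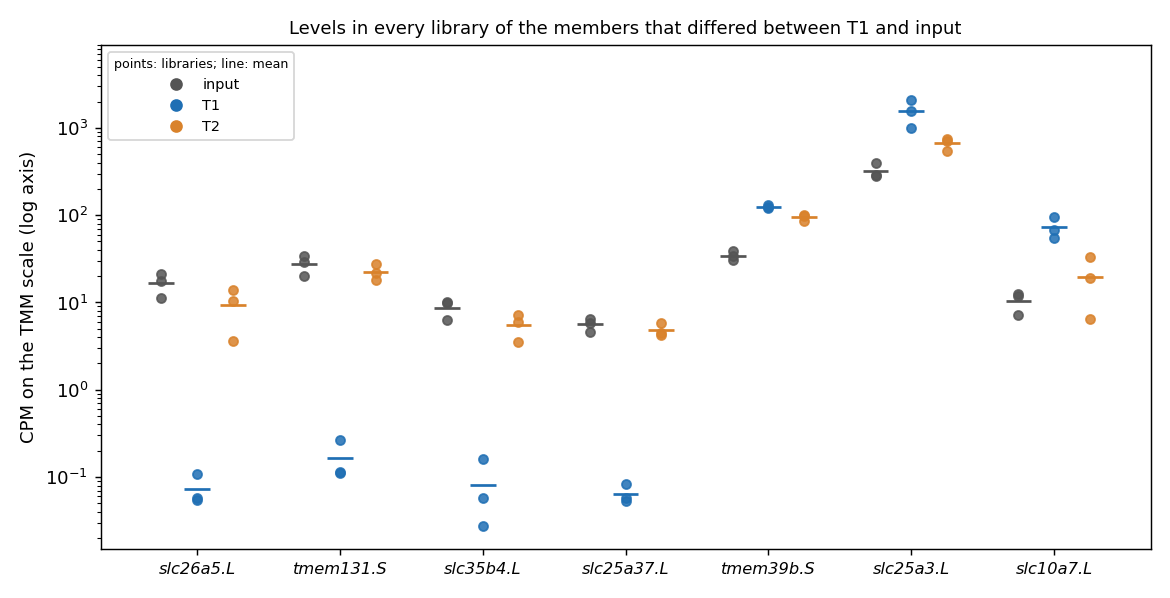
Each point is the level of 1 member in 1 library (CPM on the TMM scale, log axis), with a line at the mean of the 3 libraries of the input, T1 and T2. The 4 members on the left have T1 libraries at 0.268 CPM or less and T2 libraries at 3.55 CPM or more; in the 3 on the right all T1 libraries lie above all input libraries.

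The gene slc25a3.L (XBXL10_1g12476, 3L from 58793307 to 58802282) encodes the phosphate carrier of the inner mitochondrial membrane. Its RNA had 290, 278 and 396 CPM in input replicates 1, 2 and 3, 1008, 1547 and 2116 CPM at T1, and 547, 750 and 711 CPM at T2. No library of 1 condition overlapped with another condition, and T2 lay between input and T1. The log2 fold change at T1 was 2.28 (standard error 0.296, adjusted p = 0.0031). Its direction and its call held in all 17 alternative settings and exclusions of a library, with adjusted p up to 0.0321. At T2 the log2 fold change against the input was 1.06 (standard error 0.286, adjusted p = 0.312).

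The RNA of tmem39b.S (XBXL10_1g10110, 2S from 78020976 to 78036083) varied least among the called members. In *Caenorhabditis elegans*, a relative of this protein acts in the secretion of collagen. It had 33.8, 30.4 and 39.0 CPM in the input, 122, 124 and 130 CPM at T1, and 86.1, 97.8 and 99.4 CPM at T2. The 3 groups did not overlap, and both filtrates lay above the input. The log2 fold change was 1.87 at T1 (standard error 0.298, adjusted p = 0.00523), called in all 17 alternatives with adjusted p up to 0.0461. At T2 it was 1.46 (standard error 0.294, adjusted p = 0.278).

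The RNA of slc10a7.L (XBXL10_1g1010, 1L from 61602032 to 61725413), for a member of the bile acid carrier family linked to calcium handling, showed the largest fitted rise of the 49. It had 7.20, 11.9 and 12.4 CPM in the input and 96.1, 67.8 and 54.9 CPM at T1. At T2 it had 18.9, 33.6 and 6.44 CPM, a range that overlaps with the input and lies below T1. The log2 fold change at T1 was 2.80 (standard error 0.702, adjusted p = 0.0304). It was called in 12 of 17 alternatives, and its adjusted p reached 0.134.

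The fall with the smallest adjusted p was that of tmem131.S (XBXL10_1g10454, 2S from 104017857 to 104110706), whose single-pass protein is known to act in the secretion of collagen. Its RNA had 34.3, 29.3 and 19.9 CPM in the input, 0.110, 0.114 and 0.268 CPM at T1 (4, 4 and 5 reads), and 27.5, 21.8 and 18.1 CPM at T2. The T1 libraries lay far below all others, while T2 and input overlapped. The log2 fold change was -7.42 at T1 (standard error 1.08, adjusted p = 0.00407), a call that held in all 17 alternatives with adjusted p up to 0.037.

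The other 3 members that fell had 3 reads or fewer in each T1 library, so that their fold changes are given as lower bounds set against 3 reads per library. These bounds hold for the observed counts and are no confidence limits. The RNA of slc26a5.L (XBXL10_1g12788, 3L from 83855705 to 83901991), for prestin, the motor protein of outer hair cells in mammals, had 21.0, 11.2 and 17.7 CPM in the input and 2 reads in each T1 library. At T2 it had 13.9, 3.62 and 10.4 CPM. It was at least 152-fold lower at T1 (adjusted p = 0.0109). The RNA of slc35b4.L (XBXL10_1g12873, 3L from 92110274 to 92128218), for a nucleotide sugar transporter of the secretory pathway, had 9.87, 6.22 and 10.08 CPM in the input, 1, 2 and 3 reads at T1, and 5.99, 7.10 and 3.55 CPM at T2. It was at least 79.5-fold lower at T1 (adjusted p = 0.0316). The RNA of slc25a37.L (XBXL10_1g13610, 3L from 135226191 to 135245162), for the mitochondrial iron importer mitoferrin, had 4.59, 5.83 and 6.55 CPM in the input, 3, 2 and 1 reads at T1, and 5.84, 4.29 and 4.45 CPM at T2. It was at least 51.6-fold lower at T1 (adjusted p = 0.0354). In all 3 the T1 libraries were below every input and every T2 library. These 3 calls were lost without any single input replicate, with adjusted p up to 0.0775, 0.132 and 0.133 over all alternatives.

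Of the 49 members, 17 (34.7%) had an unadjusted p under 0.05 at T1, against 32.4% of all genes. The libraries of T1 and input did not overlap for 23 members (46.9%, against 43.5% of all genes), with 10 above the input (20.4% against 15.7%) and 13 below it (26.5% against 27.8%). The fitted log2 fold change was above 0 for 28 members (57.1%, against 48% of all genes), with a median of 0.49 and quartiles of -1.09 and 1.22, against a median of -0.09 over all genes. The median of the members was 0.30 with scaling by library size only, which shifts the median of all genes by -0.17, and it was -0.30, with -0.72 over all genes, in the fit with the replicate number as a block.

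**Figure D2:**
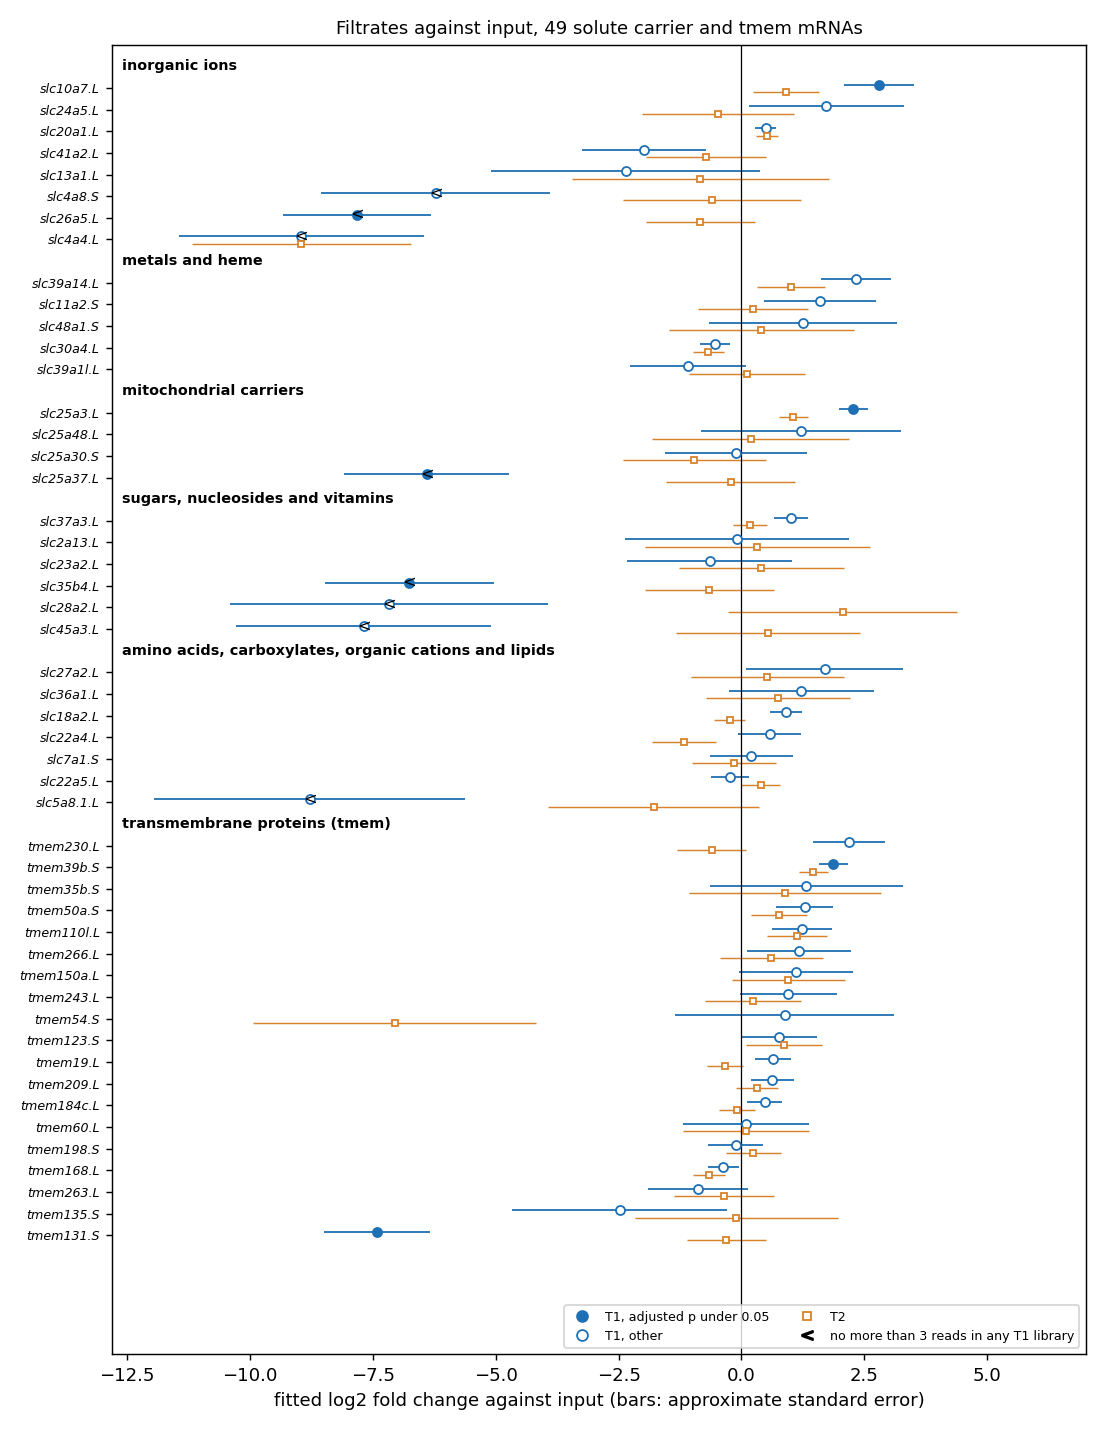
Fitted log2 fold changes of all 49 members against the input at T1 (circles) and T2 (squares), with bars for the approximate standard error. Solute carriers are grouped by the substrates assigned to them, except for the mitochondrial carriers, which form their own group, and tmem RNAs by name alone. Filled circles are the 7 members with an adjusted p under 0.05 at T1. The 8 members marked < had 3 reads or fewer in each T1 library, all of them solute carriers; their fitted values depend on the prior count of the fit and are no bounds.

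Solute carriers and tmem RNAs had unlike medians at T1, a difference that was not tested. The median log2 fold change was -0.10 over the 30 solute carriers, 14 of them above 0, and 0.76 over the 19 tmem RNAs, 14 of them above 0. For 8 solute carriers and 5 tmem RNAs at least 1 T1 library was under 1/8 of the mean input and another above that mean. This is 26.5% of the members, against 29.9% of all genes, and the fold changes of such members rest on 1 or 2 libraries. All 8 members with no more than 3 reads in every T1 library were solute carriers (16.3% of the members, against 16% of all genes). The T1 libraries were all above the input for 6 solute carriers and 4 tmem RNAs, and all below it for 11 solute carriers and 2 tmem RNAs. Over all genes 15.7% were above and 27.8% below. For slc5a8.1.L and slc28a2.L, among the 11, the lowest input library held 1 read, against 0 reads at T1.

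Among the 8 solute carriers grouped under inorganic ions, prestin included, 1 rose and 1 fell at T1 and 5 had a fold change below 0, with a median of -2.17. The RNA of slc4a4.L, for a sodium-bicarbonate cotransporter, had 1.35, 0.999 and 0.543 CPM in the input and 0 reads in all 3 T1 and all 3 T2 libraries. Against 3 reads per library this is at least 8.8-fold lower at T1 (adjusted p = 0.0629) and at least 25.8-fold lower at T2 (adjusted p = 0.312). The RNA of slc4a8.S, for a sodium-driven chloride-bicarbonate exchanger, had 1.21, 3.25 and 1.70 CPM in the input, at most 1 read per library at T1 (adjusted p = 0.0968), and 2.95, 1.07 and 0.0333 CPM at T2. For slc13a1.L, a sodium-sulfate cotransporter, the input held 2.69, 2.28 and 2.00 CPM T1 1.30, 0 and 0.0536 CPM, and T2 0, 3.91 and 0 CPM, so that T2 replicate 2 alone held it. For slc41a2.L, a magnesium transporter, the input held 53.7, 36.0 and 39.9 CPM and T1 30.5, 2.11 and 0.268 CPM.

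The sodium-phosphate cotransporter slc20a1.L had the most reads among the members grouped under inorganic ions, which leave out the mitochondrial carriers. Its RNA had 174, 178 and 150 CPM in the input, 216, 270 and 219 CPM at T1 and 208, 262 and 246 CPM at T2. All filtrates lay above the input, and the log2 fold changes were 0.49 at T1 (standard error 0.221, adjusted p = 0.152) and 0.51 at T2 (standard error 0.221, adjusted p = 0.585). The RNA of slc24a5.L, for a sodium-calcium exchanger of pigment cells, had 2.37, 4.53 and 1.65 CPM in the input and 13.8, 12.9 and 1.61 CPM at T1, so that T1 replicate 3 alone was as low as the input.

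None of the 5 members grouped as carriers of metals and heme passed the test at T1, where 3 had a fold change above 0 (median 1.25). The iron importer slc25a37.L, which fell, is counted with the mitochondrial carriers. Nearest to it was slc39a14.L, for a zinc and iron importer of the ZIP family, with 7.59, 13.8 and 12.4 CPM in the input, 62.3, 86.1 and 21.7 CPM at T1, and 29.9, 26.5 and 11.7 CPM at T2. All T1 libraries were above the input (log2 fold change 2.33, standard error 0.721, adjusted p = 0.0594). The zinc exporter slc30a4.L had 180, 139 and 122 CPM in the input, 120, 94.0 and 89.3 CPM at T1 and 119, 67.9 and 89.4 CPM at T2. Both filtrates were below the input (log2 fold changes -0.54 and -0.67, adjusted p = 0.256 and 0.655). The RNA of slc11a2.S, for the divalent metal transporter DMT1, had 7.39, 55.2 and 5.41 CPM at T1 after 10.6, 3.93 and 7.84 CPM in the input, so that only replicate 2 lay above it. For slc39a1l.L, a zinc importer of the ZIP family, the input held 27.6, 49.8 and 27.4 CPM and T1 5.102, 43.7 and 0.59 CPM, so that replicate 2 was level with the input and the others were below it. The heme transporter slc48a1.S is described with the members whose T1 libraries differed.

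The 4 mitochondrial carriers held a rise (slc25a3.L) and a fall (slc25a37.L), both given above. The RNA of slc25a30.S had 10.3, 14.8 and 10.3 CPM in the input, 13.6, 19.1 and 0.0536 CPM at T1, and 5.42, 6.77 and 6.03 CPM at T2. T1 replicates 1 and 2 were near the input and replicate 3 held 1 read, for a log2 fold change of -0.11 (standard error 1.45, adjusted p = 0.972). For slc25a48.L, the levels were 1.09, 3.27 and 3.02 CPM in the input and 16.9, 0.0285 and 0.107 CPM at T1, so that its fold change above 0 rested on 1 library.

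Of the 6 carriers of sugars, nucleosides and vitamins, 5 had a fold change below 0 at T1 and 1 of them, slc35b4.L, passed the test. The median was -3.70, or -0.997 with the 3 members of at most 3 reads set to their bounds. The RNA of slc45a3.L, for prostein of the sugar transporter family, had 2.15, 3.40 and 1.97 CPM in the input, 1, 0 and 0 reads at T1, and 6.77, 4.14 and 0.0167 CPM at T2. It was at least 22.8-fold lower at T1 (adjusted p = 0.0734), and T2 replicate 3 was as low as T1. The RNA of slc28a2.L, for a sodium-coupled nucleoside transporter, had 0.515, 0.310 and 0.0106 CPM in the input, 0 reads at T1, and 0, 2.65 and 0.85 CPM at T2, with input and T2 overlapping. The exception was slc37a3.L, of the sugar phosphate exchanger family, with 58.6, 52.7 and 61.8 CPM in the input, 92.3, 165 and 90.5 CPM at T1 and 63.7, 60.7 and 71.2 CPM at T2. Its T1 libraries were above all others (log2 fold change 1.01, standard error 0.348, adjusted p = 0.0786).

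The 7 members grouped under amino acids, carboxylates, organic cations and lipids, with the acyl-CoA synthetase slc27a2.L among them, gave no call at T1. Of their fold changes 5 were above 0, with a median of 0.57. The RNA of slc18a2.L, for the vesicular monoamine transporter, had 72.9, 51.4 and 63.4 CPM in the input, 139, 107 and 105 CPM at T1 and 50.0, 56.2 and 52.3 CPM at T2. T1 lay above both other conditions (log2 fold change 0.90, standard error 0.322, adjusted p = 0.0851). The RNA of slc5a8.1.L, for a sodium-coupled monocarboxylate transporter, had 0.0147, 1.48 and 1.06 CPM in the input, 0 reads at T1, and 0.0199, 0.703 and 0.0167 CPM at T2. Its bound was at least 7.79-fold lower (adjusted p = 0.0968). The cationic amino acid transporter slc7a1.S had 20.5, 39.4 and 31.7 CPM in the input and 4.94, 49.2 and 50.9 CPM at T1, with input inside the range of T1.

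Of the 19 tmem RNAs, tmem39b.S rose and tmem131.S fell at T1. The RNA of tmem230.L had 14.6, 13.6 and 17.8 CPM in the input, 25.5, 139 and 44.4 CPM at T1 and 14.0, 9.78 and 6.45 CPM at T2. All T1 libraries were above the input and above T2 (log2 fold change against the input 2.19, standard error 0.735, adjusted p = 0.0728). The RNA of tmem110l.L, for a regulator of calcium entry at the endoplasmic reticulum, had 21.1, 15.02 and 13.4 CPM in the input, 38.6, 46.4 and 31.3 CPM at T1, and 21.3, 27.1 and 60.0 CPM at T2. Both filtrates were above the input (log2 fold changes 1.23 and 1.13, adjusted p = 0.194 and 0.84). For tmem19.L the input held 56.3, 55.9 and 58.0 CPM, T1 101, 61.3 and 103 CPM, and T2 48.3, 37.1 and 48.9 CPM. T1 was above and T2 below the input, with log2 fold changes of 0.64 and -0.34 (adjusted p = 0.256 and 1).

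The tmem RNA with the most reads in the input, tmem168.L, had 199, 186 and 195 CPM there, 161, 101 and 187 CPM at T1 and 153, 80.8 and 134 CPM at T2. T1 overlapped with the input and T2 lay below it (log2 fold changes -0.37 at T1 and -0.66 at T2, adjusted p = 0.473 and 0.714). The RNA of tmem135.S, for a protein of mitochondria and peroxisomes, had 5.09, 6.73 and 4.85 CPM in the input, 0, 0 and 3.002 CPM at T1 and 6.80, 2.86 and 5.87 CPM at T2. The RNA of tmem209.L, for a protein of the nuclear envelope, had 49.1, 48.99 and 63.1 CPM in the input, 117, 91.9 and 40.1 CPM at T1 and 57.5, 78.7 and 64.6 CPM at T2. The other tmem RNAs that overlapped with the input at T1 had log2 fold changes from -0.88 (tmem263.L) to 1.32 (tmem35b.S). The latter had a standard error of 1.97, with 6.78, 32.8 and 0 CPM in the T1 libraries.

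The T1 libraries disagreed with each other far more than those of the input. Over the members the median coefficient of variation of the 3 replicates was 24.7% (input), 82.8% (T1) and 37.1% (T2), compared with 23.0%, 87.8% and 44.2% over all genes. For 13 members at least 1 T1 library was under 1/8 of the mean input while another was above that mean (26.5%, against 29.9% of all genes). At T2 this held for 8 members (16.3%, against 18.6%). No T1 library was under 1/8 of the mean input for 23 members, 1 library was for 10, 2 were for 7 and all 3 were for 9 (18.4%, against 16.9% of all genes).

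**Figure D3:**
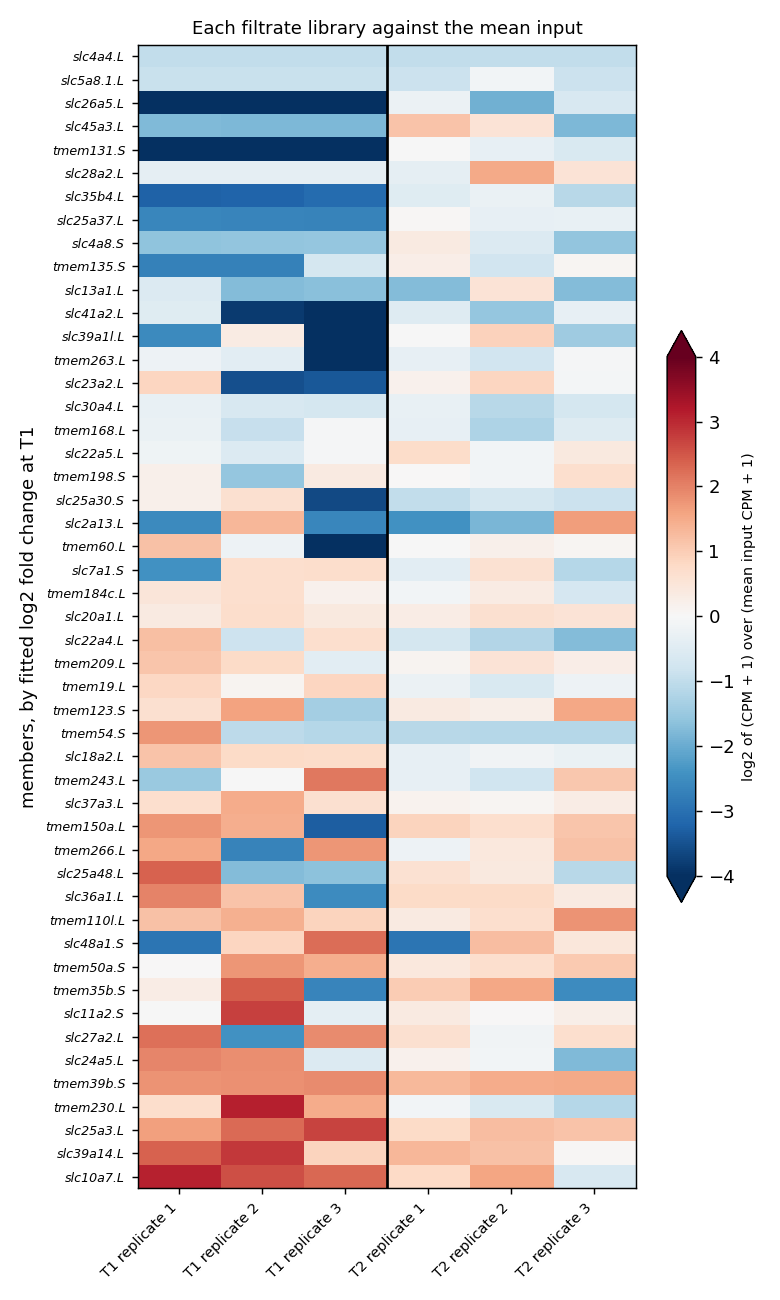
Each cell shows 1 member in 1 filtrate library as the log2 ratio of its CPM plus 1 to the mean input CPM plus 1 (red above, blue below the input; the scale ends at 4 and -4), with members ordered by their fitted change at T1. The T1 columns differ within single rows, with 12, 17 and 22 members under 1/8 of the mean input in replicates 1, 2 and 3, against 7, 2 and 8 at T2.

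The low libraries were not the same for each RNA. The vitamin C transporter slc23a2.L had 9.67, 12.2 and 11.3 CPM in the input and 20.9, 0.0570 and 0.161 CPM at T1, so that it was above the input in replicate 1 and nearly absent from the others. At T2 it had 12.5, 21.0 and 10.3 CPM, a range that overlaps with the input. The myo-inositol cotransporter slc2a13.L had 4.03, 3.19 and 8.26 CPM in the input and 0.0552, 14.4 and 0 CPM at T1, and was high in replicate 2 alone. At T2 it had 0.159, 0.725 and 18.5 CPM, and was high in replicate 3 alone. The heme transporter slc48a1.S had 6.37, 5.36 and 8.81 CPM in the input, 0.0276, 13.1 and 35.7 CPM at T1 and 0.0398, 17.4 and 9.77 CPM at T2, and was low in replicate 1 of both filtrates. The acyl-CoA synthetase slc27a2.L had 2.09, 3.86 and 8.04 CPM in the input and 25.3, 0.0570 and 19.9 CPM at T1, with only replicate 2 low.

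T1 replicate 3, the library with the fewest reads, was the low one for several RNAs. The RNA of tmem263.L had 121, 90.9 and 101 CPM in the input and 91.1, 77.8 and 0.643 CPM at T1 (12 reads in replicate 3). The RNA of tmem60.L had 15.7, 18.7 and 20.9 CPM in the input and 42.7, 16.0 and 0.107 CPM at T1, while T2, with 18.2, 21.4 and 19.4 CPM, was near the input. That of tmem150a.L had 17.2, 13.4 and 8.08 CPM in the input and 46.1, 37.5 and 0.429 CPM at T1, and that of slc36a1.L, for a lysosomal amino acid transporter, 3.502, 4.47 and 7.92 CPM and 23.9, 12.9 and 0.107 CPM. In this library a count of 3 reads corresponds to 0.161 CPM, far below the input level of these RNAs. Over all genes 27.4%, 33.1% and 49.05% were under 1/8 of the mean input in T1 replicates 1, 2 and 3, against 24.5%, 34.7% and 44.9% of the members.

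At T2, 0 members and 0 of all genes (0%) passed the test against the input in edgeR. At an unadjusted p under 0.05 there were 5 members (10.2%, against 7.79% of all genes), namely tmem39b.S, slc25a3.L, slc20a1.L, slc4a4.L and tmem54.S, and DESeq2's Wald test called 1, tmem39b.S. The fitted fold change was above 0 for 27 members (55.1%, against 57.1% of all genes), with a median log2 fold change of 0.18, against 0.14 over all genes. The libraries did not overlap for 13 members (26.5%, against 26.9% of all genes), 6 above and 7 below the input. At T1 and T2 alike, tmem39b.S, slc25a3.L, slc20a1.L and tmem110l.L were above every input library (8.16% of the members against 7.14% of all genes), and slc4a4.L, slc41a2.L and slc30a4.L were below (6.12% against 8.44%). T1 and T2 share the input libraries in these counts. At least 4-fold lower mean CPM at T2 was seen for 2 members (4.08%, against 4.74%), slc4a4.L and tmem54.S. The latter had 2.02, 0.715 and 0.841 CPM in the input, 6.51, 0.0570 and 0 CPM at T1 and 0.0199, 0 and 0 CPM at T2, at least 31.8-fold lower than the input (adjusted p = 0.529).

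Between the filtrates, tmem131.S was the 1 member called, higher at T2 (2.04%, against 0.0993% of all genes, of which 0.0893% were higher and 0.00993% lower), with a log2 fold change of 7.11 from T1 to T2 (standard error 1.07, adjusted p = 0.0438). This call was lost without any single input or T2 replicate and in the fit with the replicate number as a block, with adjusted p up to 0.235. The number of members called was 8 without T1 replicate 1 (16.3%, against 9.43% of all genes), 2 without T1 replicate 2 or 3 (4.08%, against 2.46% and 0.994%), and 0 without any input or T2 replicate. At an unadjusted p under 0.05 there were 16 members (32.7%, against 22.7%). All T2 libraries were above all T1 libraries for 5 members, tmem131.S, slc26a5.L, slc35b4.L, slc25a37.L and slc5a8.1.L (10.2%, against 13.2%). For slc5a8.1.L this rested on 2, 65 and 1 reads at T2, against 0 reads at T1. The T2 libraries were below all T1 libraries for 7 members, among them slc25a3.L, slc10a7.L, tmem39b.S and tmem230.L (14.3%, against 7.73%). The fold change from T1 to T2 was above 0 for 20 members (40.8%, against 52.8%), with a median log2 value of -0.29 over the members and 0.09 over all genes.

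RNAs low in the early filtrate and back in the late one were counted by mean CPM scaled by library size, asking for a drop of 4-fold or more from input to T1 and a rise of 2-fold or more from T1 to T2. Both held for 11 of the 49 members (22.4%, against 21.6% of all genes). They were 9 solute carriers (slc26a5.L, slc35b4.L, slc25a37.L, slc45a3.L, slc28a2.L, slc4a8.S, slc5a8.1.L, slc13a1.L and slc41a2.L) and the tmem RNAs tmem131.S and tmem135.S. For slc13a1.L and slc5a8.1.L the T2 mean rested on replicate 2, with 361 and 65 reads there, 0 reads of slc13a1.L in the others, and 2 and 1 reads of slc5a8.1.L. The T2 mean of slc5a8.1.L, 0.247 CPM, was below its input mean of 0.854 CPM. T2 replicate 3 held 1 read of slc45a3.L and 2 reads of slc4a8.S, and T2 replicate 1 held 0 reads of slc28a2.L. The RNA of slc41a2.L had 30.5 CPM in T1 replicate 1. On the TMM scale its mean was 3.94-fold lower at T1, short of 4-fold. With a single replicate of each filtrate set against the mean input, replicates 1, 2 and 3 gave 22.4%, 30.6% and 36.7% of members (29.9% ± 7.17, SD, n = 3), against 24.995%, 29.9% and 42.1% of all genes (32.3% ± 8.81).

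The span of a gene on the chromosome, introns included, was set beside the change at T1 as a property that the choice of members did not use. The 25 members with the longer span (22609 to 235215 bp) had a median log2 fold change of -0.10, and 8 of them were low at T1 and recovered at T2 as defined above. The 24 with the shorter span (3388 to 22584 bp) had a median of 0.76, and 3 of them did. The Spearman correlation between span and log2 fold change was -0.32 over the 49 members and -0.26 over 1874 named mRNAs with a span, given as a description across genes that share libraries. Span is not transcript length, which was not used here.

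**Figure D4:**
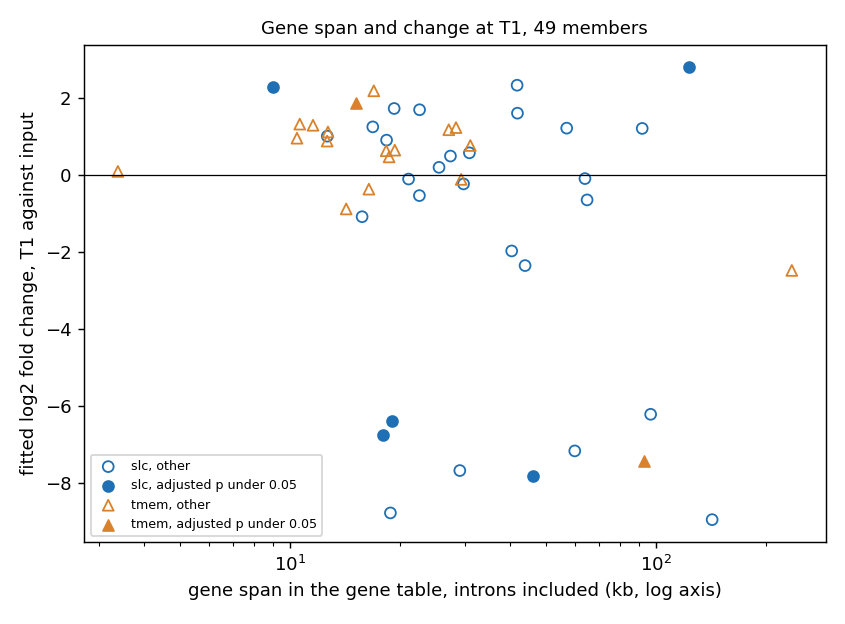
Each point is 1 of the 49 members, with its gene span in kilobases (log axis, introns included) and its fitted log2 fold change between T1 and input; filled symbols had an adjusted p under 0.05. Of the 24 shorter members 8 lie below 0, and of the 25 longer ones 13; the longest called member, slc10a7.L, rose.

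A pair of members are neighbouring relatives. The genes slc22a4.L (3L from 43828040 to 43858974) and slc22a5.L (3L from 43877822 to 43907637), for organic cation and carnitine transporters, are 18847 bp apart. The RNA of slc22a4.L had 37.3, 29.6 and 95.5 CPM in the input, 125, 30.0 and 86.5 CPM at T1 and 33.2, 23.4 and 15.6 CPM at T2. That of slc22a5.L had 101, 56.3 and 54.6 CPM in the input, 63.3, 48.4 and 68.8 CPM at T1 and 119, 66.1 and 93.4 CPM at T2. Their conditions overlapped at T1, with log2 fold changes of 0.57 and -0.23 (adjusted p = 0.592 and 0.74), and their values at T2 were -1.17 and 0.39. The gene count option of STAR that the study names leaves out reads that map to more than 1 place, so reads shared by such related genes were not counted. The genes of tmem230.L (3L from 130472628 to 130489579) and slc23a2.L (3L from 130496997 to 130561870) lie 7417 bp apart, and T1 replicate 1, the lowest of the 3 for tmem230.L, was the highest for slc23a2.L.

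Lists of other named genes, for membrane proteins and for functions of the endoplasmic reticulum, held RNAs with fold changes in both directions as well. Of 27 other transporters, channels and pumps, 13 had a log2 fold change above 0 at T1 (median -0.14). The mitochondrial uncoupling protein ucp2.S rose (2.15, standard error 0.466, adjusted p = 0.018), and mfsd2a.S, a lipid transporter, fell (-5.00, standard error 1.35, adjusted p = 0.0394). Of 25 other multi-pass membrane proteins, 17 were above 0 (median 0.57), and 1 rose and 3 fell, among them tmtc2.L (-6.52, adjusted p = 0.0201) and tmtc3.L (-1.92, adjusted p = 0.025), which act in protein O-mannosylation. Of 10 RNAs for protein translocation and folding at the endoplasmic reticulum, 9 were above 0 (median 0.79), and ostc.L, for a subunit of the oligosaccharyltransferase, rose (2.34, standard error 0.517, adjusted p = 0.0193). In the order given, 48.1%, 68% and 90% of the lists were above 0, against 48% of all genes. Called higher were 3.7%, 4% and 10%, against 6.44% of all genes. Called lower were 1 of 27, 3 of 25 and 0 of 10, against 5.08% of all genes. Against the median of -0.09 over all genes these are descriptions, and no list was tested.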

How the data were processed

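RNA was sequenced after depletion of ribosomal RNA. The authors trimmed reads with Trim Galore, aligned them with STAR to the *X. laevis* v10.1 genome and deposited raw counts per gene. Which strand was counted is not given in the sources used here. Rows naming no gene (36.2% to 46.1% of each library) were left out. A second deposited table holds signal values, which the authors made by dividing counts by DESeq2 size factors. Whole reads were recovered for 100% of its values within 0.01, with the counts of 6 members differing from the raw table. Library totals are given in the results.

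Counts were fitted with edgeR 4.0.16 in R 4.3.3 (glmQLFit and glmQLFTest, TMM, filterByExpr with a minimum count of 10 and a total of 15) over all 9 libraries, with condition as the only term, and p-values were adjusted by Benjamini-Hochberg over 20148 genes with a threshold of 0.05. Standard errors are approximate (the size of the log2 change over the root of F). Bounds are set at a fixed count of 3 reads per library and are no confidence limits. They do not include the spread between replicates. Where the observed count was close to 3 reads, they do not cover counting error either. The fit was also run on simulated counts, drawn independently for each library, with the same change in every T1 library of a gene. Paired replicates were not simulated, and the outcome is not given here. The study calls the replicates biological and reports 3 independent samples for the 9 experiments. The main fit left out a pairing of libraries by sample. Alternatives were library size scaling, median-of-ratios factors, DESeq2 1.42.0, other filters, fits to the compared conditions, a replicate block, exclusion of each library and the recovered reads, the last and the shares from single replicates being chosen after seeing the data. Members and lists were chosen with earlier results of these data known. Given with the value in every library are the members called in any comparison, the 5 highest and 5 lowest changes at T1, the 3 highest inputs, the 3 smallest changes and neighbouring members; others were chosen after their values were seen.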

Additional observations from a re-analysis of the deposited data

How the results depend on the processing

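At T1, 7 members were called with library size scaling and with median-of-ratios factors (14.3% each, against 11.3% and 11.1% of all genes). A mean of at least 1 CPM and the recovered reads also gave 7 (15.2% and 14.3%, against 13.3% and 11.6%). Without the filter 6 were called (12.2%, against 7.58%). DESeq2's Wald test called 17, 10 higher and 7 lower (37% of members with an adjusted p, against 32.5% of all genes). A fit to the compared conditions alone called 10 (21.3%, against 21.3%). Without single libraries the number ranged from 3 to 12. At T2 against the input, DESeq2 and the fit to the compared conditions each called 1, tmem39b.S (2.17% against 2.4%, and 2.04% against 0.965%). From T1 to T2, DESeq2 called 15 (7 higher, 8 lower; 32.6% against 20.7%), median-of-ratios factors and the fit to the compared conditions gave 0, and leaving out a library gave 0 to 8. The share of members low at T1 and recovered at T2 was 30.6% and 36.7% from replicates 2 and 3 alone (against 29.9% and 42.1% of all genes). It was 16.3% with at least 8-fold in place of 4-fold, 20.4% with TMM scaling and 18.4% to 26.5% without single libraries. For these last settings the share over all genes is not given here, so they are no comparison with other genes. The calls of slc25a3.L, tmem39b.S and tmem131.S at T1 held in all 17 alternatives. The median of the members at T1 was above 0 in 16 of 17. The cause of these changes was not tested.

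With the replicate number as a block, 4 members were called at T1 (slc25a3.L, tmem39b.S, tmem131.S and slc26a5.L; 8.16%, against 7.44% of all genes), 0 at T2 against the input and 0 from T1 to T2, and the median at T1 was -0.30, against -0.72 over all genes. Deviations of libraries with the same number correlated at -0.02 to 0.33. Between T1 and T2, pairs with the same number correlated at 0.065 to 0.0898 and all others below 0. Deviations from the mean of a group's 3 libraries sum to 0, so that positive pairs leave the others negative on balance. The values below 0 are therefore no separate sign of pairing. With T2, input replicates 1 and 2 correlated best with their own number (0.197 and 0.332) and input replicate 3 did not. With T1, only input replicate 2 did (0.17). The numbers may thus pair the samples, which the main fit did not model. The T1 libraries hold the fewest reads, and levels below 0.0827 to 0.161 CPM correspond to 3 reads or fewer there.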
